A study of Homo sapiens with 4 samples.

Results

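The cytochrome P450 (CYP) family was described on arrays of CD133+ and CD133- cells of Huh7, an established human hepatocellular carcinoma line. Probe sets were taken as members when the platform annotation gave them a single gene symbol made of CYP, a family number and a subfamily letter, and CYP51A1 of cholesterol synthesis was left out. This gave 102 of 54675 probe sets, which stand for 55 of 19775 named genes. Of the 55, 48 are protein-coding and 7 are pseudogenes or antisense RNAs. Flow cytometry separated the line into cells with and without CD133, the surface product of PROM1, and total RNA of each population was taken as hybridised to 1 array, an assumption that the labels do not settle. The populations share the line and carry no labelled treatment or genetic change. No label names a repeated sort or array, so no difference has a replicate check and no test was made. In bulk RNA of a sorted population, fewer cells that express a gene and less RNA of it per cell cannot be told apart. The RMA value of PROM1 itself was 10.49 in CD133+ and 5.33 in CD133- cells, 35.8-fold apart in the direction of the labels.

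P450 enzymes are heme proteins that insert an oxygen atom into their substrates, with electrons passed on by cytochrome P450 reductase in the endoplasmic reticulum and by ferredoxin in mitochondria. Families 1 to 3 oxidise drugs, carcinogens and other foreign compounds, mainly in liver and intestine, and their genes respond to ligand-activated receptors such as AHR (the aryl hydrocarbon receptor), PXR (the product of NR1I2) and CAR (the product of NR1I3). Other families act on fatty acids, bile acids, steroid hormones, vitamin D and retinoids.

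The promoters of the members with the clearest differences are shown, with those of CYP3A neighbours whose probe sets gave no shared direction. They were chosen because CYP1A genes are textbook targets of AHR and CYP3A genes of PXR. Each line holds the 250 bases before the RefSeq start of the gene in GRCh38.p14, written 5′ to 3′ on the strand of the gene. Capitals mark GCGTG, the core of the AHR response element; AGGTCA, the half-site of many nuclear receptors; and TGAACTNNNNNNAGGTCA or TTAACTNNNNNNAGGTCA, an everted repeat of such half-sites, each searched on both strands.
CYP1A1 (chr15:74725529-74725778, minus strand): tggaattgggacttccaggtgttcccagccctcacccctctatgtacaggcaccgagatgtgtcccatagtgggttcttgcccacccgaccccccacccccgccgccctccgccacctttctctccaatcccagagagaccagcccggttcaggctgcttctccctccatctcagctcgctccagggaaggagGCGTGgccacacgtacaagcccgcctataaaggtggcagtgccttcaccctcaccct
CYP2S1 (chr19:41192969-41193218, plus strand): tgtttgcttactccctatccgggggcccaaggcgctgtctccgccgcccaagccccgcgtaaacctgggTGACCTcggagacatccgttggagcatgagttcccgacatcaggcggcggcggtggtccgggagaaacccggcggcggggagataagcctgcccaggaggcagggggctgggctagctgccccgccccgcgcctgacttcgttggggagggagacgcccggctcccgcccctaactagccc
CYP3A5 (chr7:99679997-99680246, minus strand): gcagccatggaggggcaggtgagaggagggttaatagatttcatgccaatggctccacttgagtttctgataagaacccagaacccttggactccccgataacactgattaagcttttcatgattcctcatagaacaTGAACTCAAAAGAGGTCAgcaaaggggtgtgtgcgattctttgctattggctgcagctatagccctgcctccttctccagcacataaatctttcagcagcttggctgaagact
CYP3A7 (chr7:99735197-99735446, minus strand): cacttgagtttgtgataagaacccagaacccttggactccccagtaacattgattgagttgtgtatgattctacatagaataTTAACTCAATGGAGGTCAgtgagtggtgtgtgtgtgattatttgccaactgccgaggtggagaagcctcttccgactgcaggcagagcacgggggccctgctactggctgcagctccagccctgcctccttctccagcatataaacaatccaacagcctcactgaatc
CYP3A4 (chr7:99784185-99784434, minus strand): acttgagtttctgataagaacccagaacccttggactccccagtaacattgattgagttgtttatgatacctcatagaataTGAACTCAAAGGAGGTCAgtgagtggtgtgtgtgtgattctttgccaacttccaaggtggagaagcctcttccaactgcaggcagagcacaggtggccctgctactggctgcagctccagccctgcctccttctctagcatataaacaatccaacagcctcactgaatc
CYP3A43 (chr7:99827763-99828012, plus strand): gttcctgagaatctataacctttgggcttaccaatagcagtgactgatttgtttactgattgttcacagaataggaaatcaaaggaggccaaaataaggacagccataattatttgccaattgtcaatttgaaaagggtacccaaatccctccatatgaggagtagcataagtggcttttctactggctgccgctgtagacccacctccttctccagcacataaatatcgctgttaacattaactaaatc

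The everted repeat was found in CYP3A5, CYP3A7 and CYP3A4 and not in CYP3A43. In CYP3A5 it read TGAACTCAAAAGAGGTCA and began 113 bases before the start. In CYP3A7 it read TTAACTCAATGGAGGTCA and began 168 bases before the start, and in CYP3A4 it read TGAACTCAAAGGAGGTCA and began 169 bases before it. Its last letters are an AGGTCA, so that the half-site in these genes is the same match and not a further one. Over the first 250 bases of all 35116 RefSeq windows, either form occurred in 5 (0.0142%): those of CYP3A4, CYP3A5, CYP3A7, the readthrough CYP3A7-CYP3A51P, which has the same window as CYP3A7, and ITGB1BP2. CYP1A1 held 1 GCGTG, from 57 to 53 bases before its start, and this motif was in 32.2% of all windows. CYP2S1 held no GCGTG in this window and 1 AGGTCA on the opposite strand, read as TGACCT, a half-site present in 12.1% of all windows. A match of letters is a description of the sequence, and sites outside these windows were not searched.

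By RMA, most P450 genes above background brightness had similar values in both populations, and 4 genes were at least 1.5-fold higher in CD133+ cells: CYP2S1, CYP3A7-CYP3A51P, CYP1A1 and CYP3A5. Values are RMA log2 values of the probe set of highest mean per gene, and differences are CD133+ minus CD133-. A gene counted as above the floor when the brighter of its RMA values exceeded 4.86, the 50th percentile of the brighter value across the array, which is no detection call. This held for 24 of the 55 genes, 22 of them on both arrays, and 31 lay below it on both. Of the 24, 1 was at least 2-fold higher and 0 were at least 2-fold lower, where 1.65% and 0.116% of all 12899 named genes above the floor were. At 1.5-fold, 4 of the 24 (16.7%) were higher against a background of 3.67%, and 0 were lower against a background of 1.01%. The median difference of the 24 was 0.00, and that of all named genes above the floor was -0.01. Differences within 0.3 were seen for 18 of the 24 genes (75%), against 84.0% of all named genes above the floor. The other 6 were the 4 higher genes, of which CYP2S1 differed most (1.05), and CYP3A43 and CYP2W1, whose CD133+ values lay under the floor and which were at least 1.35-fold and 1.27-fold lower against it.

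**Figure D1:**
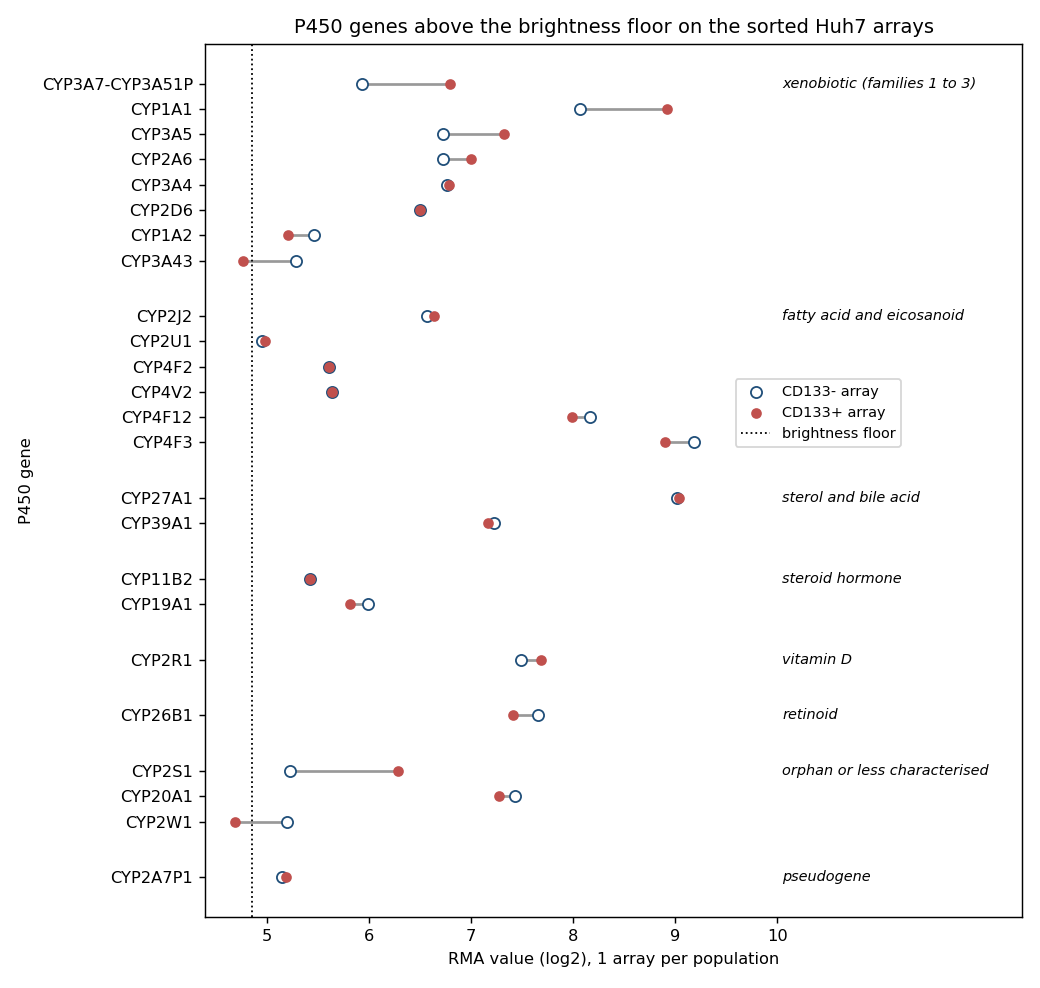
RMA values (log2, horizontal axis) of the 24 P450 genes above the brightness floor, grouped by substrate class, with open circles for the CD133- array, filled circles for the CD133+ array and a dotted line at the floor of 4.86. CYP2S1, CYP3A7-CYP3A51P, CYP1A1 and CYP3A5 have the widest gaps, all with the CD133+ value higher; positions of different genes are not comparable, since each comes from its own probe set.

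The spread between probe sets of 1 gene gives the available measure of technical noise. Over 16955 pairs of probe sets of the same gene, both above the floor, the gap between their differences had an SD of 0.24 (log2). Over the 29 such pairs of P450 genes the SD was 0.43. The 4 leading differences, from 0.60 to 1.05, are to be read against that spread. It does not include the variation between sorts, cultures or hybridisations. Counted by probe set, 7 of the 42 P450 probe sets above the floor (16.7%) were at least 1.5-fold higher against a background of 3.17%, and 0 were as much lower against 1.09%. Of these 7, 3 belong to CYP3A5 and 1 each to CYP1A1, CYP2S1, CYP3A4 and CYP3A7-CYP3A51P. Probe sets of the CYP3A genes can take up each other's transcripts, so the 7 are not independent of each other.

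CYP1A1, the enzyme that oxidises polycyclic aromatic hydrocarbons, was higher in CD133+ cells. Its only probe set had RMA values of 8.92 in CD133+ and 8.07 in CD133- cells, 1.81-fold apart. The MAS5 signals were 3018 and 1414, a 2.13-fold difference. Both algorithms thus placed the CD133+ array higher, but they were taken as summaries of the same arrays, and their agreement is not counted as independent. CYP1A2, the caffeine-metabolising enzyme encoded next to CYP1A1, had no settled direction. One of its probe sets had RMA values of 5.21 and 5.46 and the other 5.24 and 5.07, so the probe sets had opposite signs (-0.25 and 0.17). CYP1B1, the enzyme that hydroxylates estradiol, lay below the floor on all 4 of its probe sets, with differences from 0.10 to 0.25. Its antisense RNA CYP1B1-AS1 also lay below the floor on both arrays.

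CYP2S1, an extrahepatic member of family 2 that oxidises retinoids and prostaglandin intermediates and is known as dioxin-inducible, had the largest difference of the family. Its RMA values were 6.28 in CD133+ and 5.23 in CD133- cells, 2.07-fold apart, and MAS5 signals of 294 and 156, a 1.89-fold difference. Both values lay above the floor, and CYP2S1 has a single probe set, so the difference cannot be compared with that of another. CYP2S1 lies at the end of the cluster that also holds the CYP2A, CYP2B and CYP2F genes. Of these neighbours CYP2A6, the nicotine-oxidising enzyme, was above the floor, at 7.0 and 6.73, and its 4 probe sets differed by -0.02 to 0.27. CYP2A6 shares sequence with CYP2A7 and CYP2A13, whose own probe sets were below the floor, and the MAS5 signal of the CYP2A6 probe set used here (82.6 and 76.8) lay below the MAS5 floor of 91.8. The pseudogene CYP2A7P1 had RMA values of 5.19 and 5.15, with MAS5 signals of 12.3 and 6.38.

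AHR, the receptor that drives CYP1A1 transcription, was itself higher, with RMA values of 8.54 and 7.78, a 1.69-fold difference, and MAS5 signals of 1590 and 1003. Its partner ARNT had values of 6.28 and 6.43. A list of 7 further AHR targets had 4 members above the floor, with differences from -0.11 for NFE2L2, the regulator of the antioxidant response, to 0.18 for TIPARP, an ADP-ribosyltransferase. None of these 4 reached 1.5-fold in either direction, against backgrounds of 3.67% higher and 1.01% lower, so the count does not set so short a list apart. Of the 4, ALDH3A1 had 4.99 on both arrays, with MAS5 signals of 17.3 and 16.9 below the MAS5 floor. NQO1, a quinone reductase, had values of 10.41 and 10.31, and AHRR, the AHR repressor, lay below the floor at 3.94 and 3.82. CYP1A1 and CYP2S1 were thus higher beside AHR. The 4 listed targets above the floor differed by less than 0.24, the spread between probe sets, and a relation to AHR was not tested.

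The CYP3A genes are the chief drug-oxidising enzymes of liver and gut, with CYP3A7 as the fetal liver form, and they lie next to each other. CYP3A5 was higher on each of its 3 probe sets above the floor. Their CD133+ and CD133- values were 7.33 and 6.72, 7.19 and 6.41, and 6.68 and 6.0, which gave differences of 0.60, 0.78 and 0.67. The MAS5 signals of the first were 718 and 327, a 2.19-fold difference. CYP3A5 is the one of the 4 leading genes with several probe sets above the floor, and the gap between them was smaller than any of the 3 differences. The fourth probe set lay below the floor, at 2.46 and 2.06.

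The probe set of CYP3A7-CYP3A51P, a readthrough transcript that starts at CYP3A7, had RMA values of 6.80 and 5.94, a 1.82-fold difference, and MAS5 signals of 621 and 330. A probe set annotated to both this readthrough and CYP3A7 had nearly the same values, 6.88 and 6.09, a difference of 0.79. A second one of this kind was below the floor, at 4.47 and 4.17. CYP3A7 and its readthrough cannot be told apart here, and the CYP3A genes are similar enough in sequence that their probe sets can take up each other's transcripts.

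CYP3A4, the main drug-metabolising P450 of adult liver, gave no consistent answer. Its 5 probe sets were all above the floor, with differences of 0.01, 0.78, 0.40, -0.42 and 0.17 from the highest mean value to the lowest. The probe set at 0.78 had RMA values of 6.20 and 5.42, but MAS5 signals of 170 and 155. The probe set of highest mean had RMA values of 6.78 and 6.77, but MAS5 signals of 11.5 and 146, a difference of -3.67 by MAS5. This was the widest disagreement between the algorithms among the 24 genes above the floor, and no direction is given for CYP3A4. CYP3A43, a minor member, had values of 4.77 and 5.29, at least 1.35-fold lower against the floor. Its other probe set above the floor differed by 0.18, so the direction of CYP3A43 was not shared by its probe sets.

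**Figure D2:**
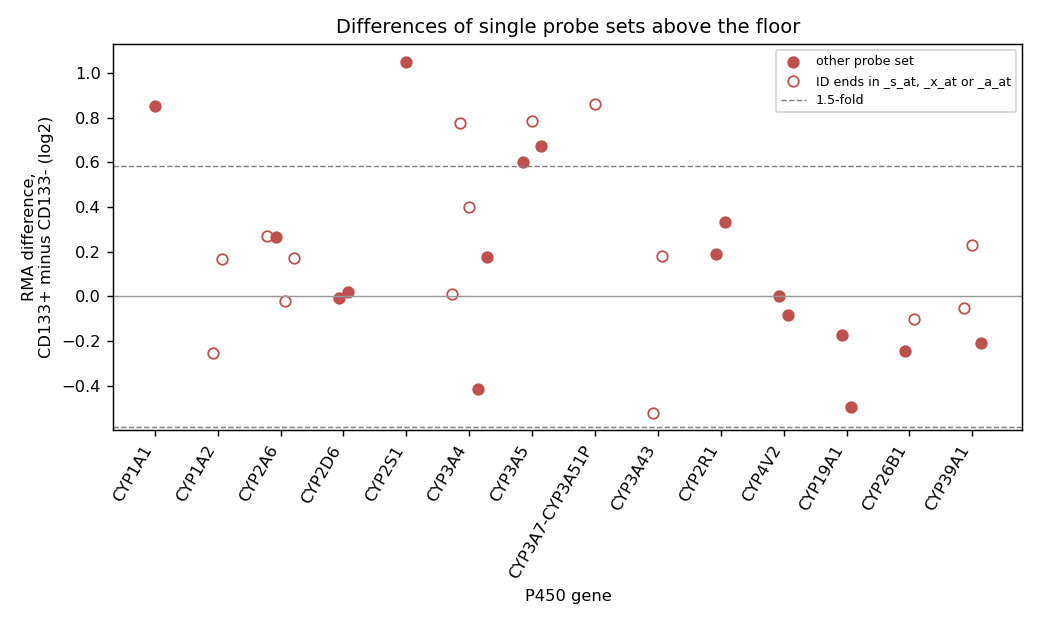
RMA difference CD133+ minus CD133- (log2, vertical axis) of each probe set above the floor, for P450 genes with several such probe sets and for CYP1A1, CYP2S1 and CYP3A7-CYP3A51P with 1; open circles are probe sets whose ID ends in _s_at, _x_at or _a_at, a mark of possible matches to several transcripts, and dashed lines mark 1.5-fold. The 3 CYP3A5 probe sets lie between 0.60 and 0.78, whereas those of CYP3A4 run from -0.42 to 0.78.

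Among the other xenobiotic enzymes, CYP2D6, which oxidises many psychiatric and cardiac drugs, had values of 6.50 and 6.51, and its second probe set 6.38 and 6.36. CYP2D6 was thus level on both of its probe sets by RMA, but the second had MAS5 signals of 64.6 and 214, a difference of -1.73. The phenobarbital-inducible CYP2B6 was below the floor on its own probe sets, the brighter of which had values of 3.88 and 3.57. A probe set shared by CYP2B6 and the pseudogene CYP2B7P had values of 6.81 and 6.02, a 1.72-fold difference, and MAS5 signals of 302 and 183. That probe set names no single gene and is not counted among the members. CYP2E1, the ethanol-inducible enzyme, was below the RMA floor on both arrays and all 4 probe sets, with differences of 0.73, 0.65, -0.23 and 0.41 from the highest mean value to the lowest. The first of these had values of 4.31 and 3.58, and no fold is given since both lay under the floor. CYP2C8, CYP2F1, CYP2A7 and CYP2A13 were also below the floor on both arrays.

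The P450 enzymes of fatty acids and eicosanoids that were above the floor had similar RMA values in both populations. Of 11 such genes with a probe set, 6 were above the floor, with differences from -0.28 to 0.07. None was at 1.5-fold, against backgrounds of 3.67% higher and 1.01% lower, so the count does not set so short a list apart. CYP4F3, which inactivates leukotriene B4, had values of 8.90 and 9.18. CYP4F12 had values of 7.99 and 8.16, and CYP4F2, a vitamin K and arachidonic acid hydroxylase, 5.61 on both arrays. The CYP4F genes are neighbours of high sequence similarity, and a probe set shared by CYP4F2 and CYP4F3 differed by -0.06. CYP2J2, the arachidonic acid epoxygenase, had values of 6.64 and 6.57, CYP2U1 of 4.98 and 4.95, and CYP4V2 of 5.64 on both. The MAS5 signals of CYP4V2 were 202 and 154, a 1.32-fold difference. By MAS5 the CYP4F3 signals were 2828 and 2615, a difference of the opposite sign (0.11), so its small RMA difference has no settled direction.

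The P450 enzymes of bile acid synthesis that were above the floor had similar RMA values as well. CYP27A1, the mitochondrial sterol 27-hydroxylase of the acidic pathway, had values of 9.04 and 9.02, with MAS5 signals of 1477 and 1586. CYP39A1, which hydroxylates 24-hydroxycholesterol, had values of 7.17 and 7.22, and its 3 probe sets differed by -0.21 to 0.23. CYP7A1, the rate-limiting enzyme of the classic pathway, was below the floor at 2.15 and 1.94, and so were CYP8B1, the 12-hydroxylase, at 4.33 and 4.18, CYP7B1 and the brain enzyme CYP46A1. Of 5 other bile acid enzymes above the floor, AMACR, the racemase of the side-chain steps, was the only one at 1.5-fold, against a background of 3.67% higher. AMACR had values of 5.74 and 5.03, and its other probe set above the floor a difference of 0.26. AKR1D1, the steroid 5-beta-reductase, differed by 0.31 and the bile acid CoA ligase SLC27A5 by -0.25.

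Among the enzymes of hormones and vitamins, 2 of steroid hormones, 1 of vitamin D and 1 of retinoids were above the floor. None of these differed by 1.5-fold, against backgrounds of 3.67% higher and 1.01% lower, so the count does not set so short a list apart. CYP19A1, the aromatase that makes estrogens, had values of 5.82 and 5.99 on 1 probe set and 4.68 and 5.18 on another, both with the CD133- array higher. By MAS5 the first gave 279 and 389. CYP11B2, the aldosterone synthase of the adrenal, had 5.42 on both arrays, but its MAS5 signals of 44.3 and 16.4 were below the MAS5 floor, so an RMA value above the floor does not by itself show expression. CYP11A1, CYP11B1 and CYP17A1 were below the floor. CYP2R1, the vitamin D 25-hydroxylase of liver, had values of 7.68 and 7.49 on 1 probe set and 5.98 and 5.65 on another. CYP2R1 was slightly higher in CD133+ cells on both, by 0.19 and 0.33. CYP27B1 and CYP24A1, which activate and degrade vitamin D, were below the floor. CYP26B1, which clears retinoic acid, had values of 7.41 and 7.65 and a second probe set that differed by -0.10. CYP26A1, its relative in liver, was below the floor at 4.06 and 4.16, as was the retinoid desaturase CYP27C1.

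The remaining members have less certain substrates. CYP2W1, known from fetal gut and colorectal tumours, had values of 4.69 and 5.20, at least 1.27-fold lower against the floor, but its MAS5 signals of 37.9 and 66.8 were both below the MAS5 floor. CYP20A1, an orphan enzyme, had values of 7.28 and 7.43, with MAS5 signals of 949 and 802, so the algorithms gave opposite signs. CYP4X1 and CYP4Z1 were below the floor. Below the floor, measured differences of the 31 genes ran from -0.66 for CYP4F11 to 0.73 for CYP2E1.

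MAS5 gave the same direction as RMA for the 4 leading genes. Of the 24 genes, 19 were also above the MAS5 floor, and 12 of these 19 had differences of the same sign by both algorithms. Of the rest, CYP4F2 and CYP4V2 had an RMA difference of 0.00 and thus no sign. CYP2J2, CYP3A4, CYP4F3, CYP20A1 and CYP27A1 had opposite signs. The share over all genes was not computed. The MAS5 differences were 1.13 for CYP3A5, 1.09 for CYP1A1, 0.92 for CYP2S1 and 0.91 for CYP3A7-CYP3A51P. A gap of over 1 (log2) between the algorithms was found for 3 of the 24 genes: CYP3A4, CYP11B2 and CYP1A2. Of these, CYP3A4 had a MAS5 signal above the floor. The share of such gaps over all genes was not computed either, so neither count is a result about the family.

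**Figure D3:**
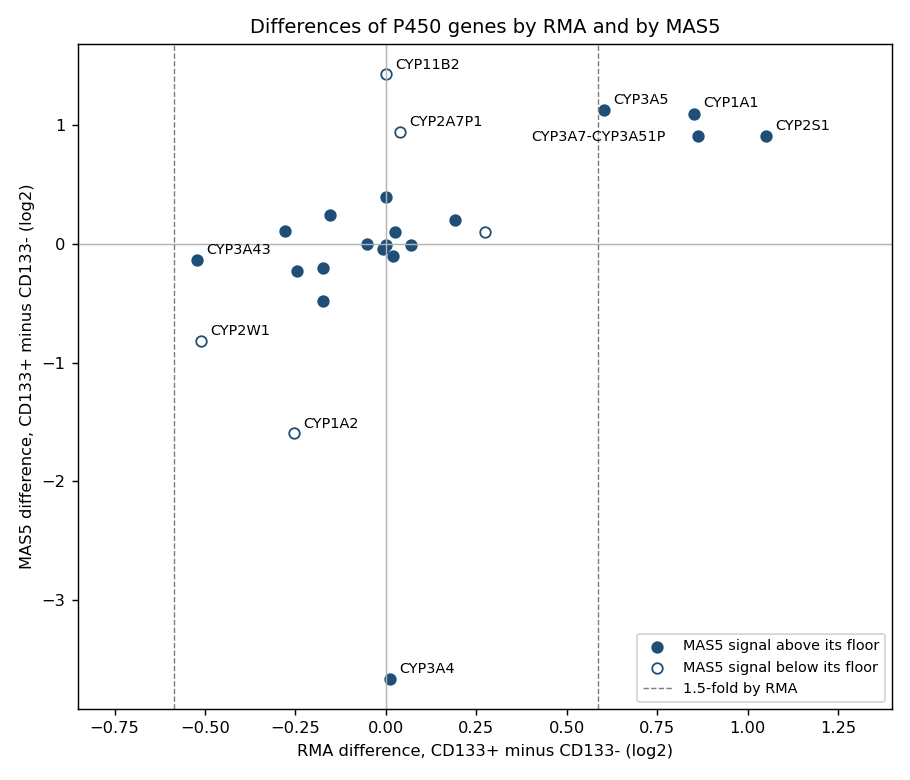
Difference CD133+ minus CD133- (log2) by RMA (horizontal axis) and by MAS5 (vertical axis) for the 24 P450 genes above the RMA floor; open circles have a MAS5 signal below 91.8 on both arrays and dashed lines mark 1.5-fold by RMA. CYP3A5, CYP1A1, CYP2S1 and CYP3A7-CYP3A51P lie together at the upper right, and CYP3A4 lies at the bottom with 0.01 by RMA and -3.67 by MAS5.

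Along the genome, P450 genes that lie next to each other did not all differ alike by the probe set of highest mean. Grouped with the gene order of the reference annotation, CYP3A5 and CYP3A7-CYP3A51P were higher while their neighbours CYP3A4 and CYP3A43 differed by 0.01 and -0.52. Probe sets above the floor ran from -0.42 to 0.78 for CYP3A4, and the other one of CYP3A43 differed by 0.18. Neither neighbour thus has a settled direction to set against CYP3A5. CYP1A1 (0.85) stood beside CYP1A2 (-0.25, and 0.17 on its other probe set), which has no settled direction either. CYP2S1 (1.05) stood in a group of 8 members of which CYP2A6 (0.27) and CYP2A7P1 (0.04) were the others above the floor. A probe set shared by CYP2B6 and CYP2B7P of that group, not counted as a member, was also higher, at 6.81 and 6.02. In the CYP4F group of 6, the 3 members above the floor were CYP4F3 (-0.28), CYP4F12 (-0.17) and CYP4F2 (0.00). The 5 members of the CYP4A, CYP4B, CYP4X and CYP4Z group with a probe set of their own were below the floor.

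Genes that supply electrons and heme to P450 enzymes differed little, as did most named genes above the floor. All 7 redox partners with a probe set were above the floor, with a median of -0.10. Of these, 0 reached 1.5-fold in either direction, against backgrounds of 3.67% higher and 1.01% lower, so the count does not set so short a list apart. POR, the reductase that serves all microsomal P450s, had values of 8.80 and 9.01. CYB5A, the cytochrome b5 that assists many of them, had values of 10.90 and 11.27 and was lower by 0.37, 0.38 and 0.47 on its 3 probe sets above the floor (log2). FDX1, the ferredoxin of mitochondrial P450s, had values of 9.03 and 8.72. Of 11 heme genes 0 reached 1.5-fold by the probe set of highest mean, against the same backgrounds, and their median was 0.05. ALAS1, the rate-limiting enzyme of heme synthesis in liver, had values of 9.14 and 9.04 and CPOX the lowest difference, -0.19. BLVRA, the biliverdin reductase, had the highest, with values of 8.08 and 7.56, and 2 further probe sets over the floor gave 0.65 and 0.63, above 1.5-fold.

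Of 16 receptors and transcription factors of P450 genes above the floor, 1 was at least 1.5-fold higher, AHR, and 0 were as much lower, against backgrounds of 3.67% and 1.01%, with a median of -0.08. VDR, the vitamin D receptor, came next with values of 5.92 and 5.37, but its other probe set above the floor differed by 0.15. NR5A2, the bile acid regulator LRH-1, was higher by 0.34, 0.46 and 0.16 on its 3 probe sets above the floor. ONECUT1 (HNF6) had the lowest difference, with values of 5.12 and 5.55. The liver factors CEBPA and FOXA2 differed by -0.09 and 0.03, RXRA by -0.08 and PPARA by -0.09. NR1I3, the CAR gene, was below the floor at 4.10 and 3.72, and NR1I2, the PXR gene, was not analysed here because no probe set carried its symbol alone.

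The non-P450 enzymes of phase I metabolism included larger differences than the P450 family did. Of 11 above the floor, 4 were at least 1.5-fold higher and 3 of these at least 2-fold, against backgrounds of 3.67% and 1.65%, and 0 were as much lower. The median of the 11 was 0.24, where that of all genes above the floor was -0.01. AOX1, the aldehyde oxidase, had values of 7.47 and 5.37, 4.31-fold higher, and its second probe set gave 5.57 and a CD133- value under the floor, a bound of at least 1.64-fold. FMO1, the flavin monooxygenase of fetal liver, had values of 6.27 and 4.78, at least 2.67-fold higher against the floor. AADAC, an arylacetamide deacetylase that hydrolyses drugs, had values of 9.16 and 8.10, and FMO5 of 7.03 and 6.37. The other FMO5 probe set above the floor differed by 0.43, under 1.5-fold, with MAS5 signals of 153 and 144. By the probe set of highest mean, AOX1, FMO1, AADAC and FMO5 were higher on the CD133+ array by MAS5 as well, with differences of 1.96, 1.92, 1.21 and 0.70. MAOB, a monoamine oxidase, had the lowest difference, -0.15, the epoxide hydrolase EPHX1 one of -0.04 and the carboxylesterase CES1 one of 0.32.

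**Figure D4:**
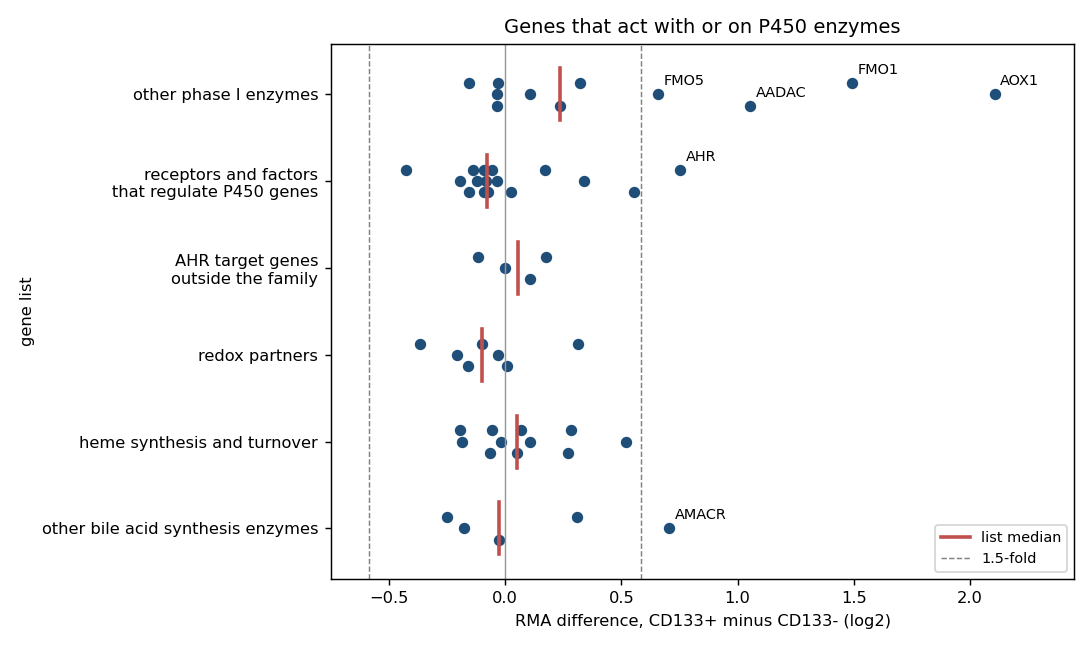
RMA difference CD133+ minus CD133- (log2, horizontal axis) of the genes above the floor in 6 lists of genes that act with or on P450 enzymes, 1 point per gene, with a red bar at each list's median and dashed lines at 1.5-fold. AOX1, FMO1, AADAC and FMO5 stand to the right in the phase I list, AHR among the receptors and AMACR among the bile acid enzymes.

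Markers of liver and other cells were measured on the same arrays. All 8 hepatocyte markers were above the floor, with differences from -0.25 for APOB to 0.55 for TTR, and their summed MAS5 signal came to 314410 in CD133+ and 311746 in CD133- cells. Of 7 blood markers 5 had a probe set and 4 were above the floor, from -0.25 for CD14 to 0.00 for HBB, with PTPRC below it. Summed over all 5, the MAS5 signals were 663 and 717. Of 8 endothelial and stromal markers 4 were above the floor, from 0.02 for VWF to 1.33 for COL1A2, while CDH5, DCN, COL3A1 and ACTA2 were below it. Summed over all 8, the MAS5 signals were 2546 and 1626. COL1A2, with MAS5 signals of 1617 and 670, made up most of the gap between these sums, while COL1A1 had 497 and 481 and RMA values of 7.68 and 7.64. COL1A2 was thus higher beside the 4 P450 genes, and it was the only marker of this list at 1.5-fold. Huh7 is an established line, and a relation of COL1A2 to the P450 differences was not tested.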

How the data were processed

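The deposited table gives each population once by MAS5 and once by RMA. Whether both come from the same hybridisation is not stated in the labels; they were assumed to be 1 array per population and not used as replicates. By MAS5 the deposited values are linear signal intensities per probe set (0.151 to 72070), per the labels, with a mean of 500.1 on both arrays after trimming 2% from each end. The tools in the submitters' processing notes are MAS5 and GCOS. By RMA the deposited values are on the log2 scale, from 1.33 to 14.2. RMA includes quantile normalization, which hides any shift common to all genes. For the RMA software and the genome build, the entry is: not given in the sources used here. Scanner files and detection calls were not used here. The number of arrays limits the precision, and intervals could not be given.

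Of the probe sets, 41097 had 1 gene symbol, 1801 several and 11777 none. Symbols were updated by Entrez number through RefSeq (GRCh38.p14), which matched 41043 and changed no P450 symbol. Promoters came from RefSeq, where 37 of the 55 genes had a window. The probe set with the highest mean RMA stood for its gene. Every P450 gene could be named; those at least 1.5-fold different were described with MAS5 and all their probe sets. Of related lists, members at 1.5-fold or, failing that, the extremes were named, and others (such as POR, ALAS1, ARNT, VDR and NR5A2) for their role after their values were seen. The family and the lists were chosen with earlier results of these data known. Differences were computed with Python 3.11.15, pandas 2.3.3 and numpy 2.4.6, and the script was tested on simulated data.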

Additional observations from a re-analysis of the deposited data

How the results depend on the processing

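The 4 counts and the median of P450 genes were recomputed under 7 alternatives, the last chosen after seeing the data: MAS5 in place of RMA, no floor, a floor at the 75th percentile (6.79), the mean over probe sets, no probe sets whose ID marks several transcripts, centring on the median, and the floors of RMA and MAS5 together. Of 35 values, 30 stayed close (counts within 1.5 times, medians within 0.24). All settings reuse the same arrays, and 0.24, a spread of single probe sets, is wide for a median. The 30 are thus no measure of reproducibility. Medians ran from 0.00 to 0.08, and the count at least 1.5-fold higher from 3 to 6. The 6 were of 24 genes by MAS5, against a background of 9.92%, and included CYP2B6 and CYP2E1, whose CD133- signals lay under the MAS5 floor. The 3 were of 11 genes with the higher floor, against 3.24%. They were of 18 without probe sets that can match several transcripts, against 3.5%. By MAS5, of 24 genes above its floor 3 were at least 2-fold higher (CYP1A1, CYP2E1 and CYP3A5) and 1 was 2-fold lower (CYP3A4). At 1.5-fold, 2 were lower (CYP3A4 and CYP4B1). Of all 12251 named genes above that floor, 4.47%, 1.71% and 5.44% were so, in that order. In CYP2E1 (93.8 and 10.6), CYP3A4 (11.5 and 146) and CYP4B1 (64.5 and 107) the fainter signal lay under the MAS5 floor of 91.8. Their folds are thus measured values and not bounds against that floor. Without a floor, 1 was 1.5-fold lower (CYP4F11). With the higher floor, 0 were 2-fold higher, because CYP2S1 lay under it. CYP1A1 and CYP3A5 were at least 1.5-fold higher under each of the 7. Without probe sets that can match several transcripts CYP3A7-CYP3A51P had none left. No paired analysis was possible because each population has 1 array, so no replicate could be left out either. Signals near the floor limit what can be said of the 31 genes under it.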

Other observations

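Some RMA values were exactly equal on both arrays. This was so for CYP4F2, CYP4V2 and CYP11B2, 3 of the 24 P450 genes above the floor (12.5%), for 3.24% of all named genes above the floor and for 7.70% of all probe sets, whereas no probe set was exactly equal by MAS5. The MAS5 differences of these 3 genes were -0.01, 0.40 and 1.43. A value of 0.00 by RMA is therefore not a measurement of equality to that precision.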
